A study of Mus musculus with 4 samples.

Results

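Igfbp5-high cells were the cells of 4 single-cell libraries in which Igfbp5, the gene of insulin-like growth factor binding protein 5, made up at least 0.2% of all RNA molecules counted. They were selected on that share alone, among barcodes with at least 5000 unique molecular identifiers (UMIs, 1 per captured RNA molecule), at least 1500 genes and at most 20% mitochondrial UMIs. The rule found 2556 cells among 22049 kept cells. The cells were C3H10T1/2, a clonal mouse line of mesenchymal progenitors (MPC), and stably carried a tagged wild-type histone H3.1 transgene (H3WT) or the same transgene with arginine 26 changed to cysteine (H3R26C). The cells of each genotype had been given 5-Azacitidine (5-Aza), which inhibits DNA methyltransferases, or DMSO, its vehicle, and each of the 4 conditions had 1 library. All cells had been transduced with a lentivirus and kept their endogenous H3 genes, so that the mutant histone was added to a wild-type pool. Within each library the Igfbp5-high cells were compared with Igfbp5-low cells, in which Igfbp5 made up less than 0.05% of the UMIs.

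Igfbp5 is a secreted protein that binds the insulin-like growth factors IGF1 and IGF2 and holds them in the fluid around the cell or on the extracellular matrix. Ligand that is set free by proteases acts on the receptor IGF1R, which signals through the adaptors IRS1 and IRS2, while IGF2R takes up IGF2 for degradation. In mesenchymal tissues Igfbp5 is made by fibroblasts and by differentiating muscle and bone cells, and it is known as an early product of myoblasts that leave the cell cycle. Igfbp5 (ENSMUSG00000026185) lies on the minus strand at chr1:72857932-72874884 in the GENCODE M21 annotation of GRCm38. The 250 bases that precede its annotated RefSeq start are shown because the cells were chosen by this gene's RNA. They lie at chr1:72874866-72875115 (GRCm38.p6, minus strand, written 5′ to 3′ along the gene), and the capitals mark the single match to CANNTG, the letters of an E-box, to which the muscle factors MyoD and myogenin can bind.
Igfbp5: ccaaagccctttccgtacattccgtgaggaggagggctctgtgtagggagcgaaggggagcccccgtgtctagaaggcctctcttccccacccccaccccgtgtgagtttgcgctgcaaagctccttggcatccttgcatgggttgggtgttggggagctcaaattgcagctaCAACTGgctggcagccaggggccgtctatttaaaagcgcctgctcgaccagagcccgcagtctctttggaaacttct

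The share of Igfbp5-high cells differed between the libraries. In H3WT the share was 6.04% with DMSO (224 of 3710 cells) and 11.2% with 5-Aza (672 of 5993). In H3R26C the share was 16.9% with DMSO (801 of 4727 cells) and 11.3% with 5-Aza (859 of 7619). The exact binomial 95% intervals, which cover counting error only, ran from 5.29 to 6.85%, from 10.4 to 12.04%, from 15.9 to 18.0% and from 10.6 to 12.01% in that order. Both 5-Aza libraries therefore lay between the DMSO libraries and overlapped each other. With 1 library a condition these differences have no replicate check, and no test of them was made. When every cell was thinned to 5000 UMIs the shares were 6.66, 11.8, 17.1 and 11.98%, and 93.1 to 94.3% of the chosen cells were chosen again.

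The Igfbp5 level is given as a description, since it chose the cells. In CPM, the UMIs of a gene summed over cells and scaled to a common total of UMIs, it was 4740 in Igfbp5-high against 26.8 in Igfbp5-low cells of H3WT with DMSO, 5572 against 66.6 in H3WT with 5-Aza, 6118 against 40.3 in H3R26C with DMSO and 5064 against 85.1 in H3R26C with 5-Aza. The chosen cells held 69.1, 75.6, 85.5 and 69.6% of all Igfbp5 UMIs in these libraries. Their median share was 0.343, 0.380, 0.438 and 0.372%, and the highest single cells reached 2.28, 4.27, 5.07 and 3.59%. The share formed a continuous range with no gap at the threshold. Cells just inside it (0.2 to 0.22%) numbered 11, 65, 48 and 70, with medians of 34, 29, 33.5 and 30 Igfbp5 UMIs, and cells just outside (0.18 to 0.2%) numbered 16, 61, 52 and 89, with medians of 43.5, 26, 29 and 26. Whether the cells form a cluster in other genes was not tested.

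**Figure D1:**
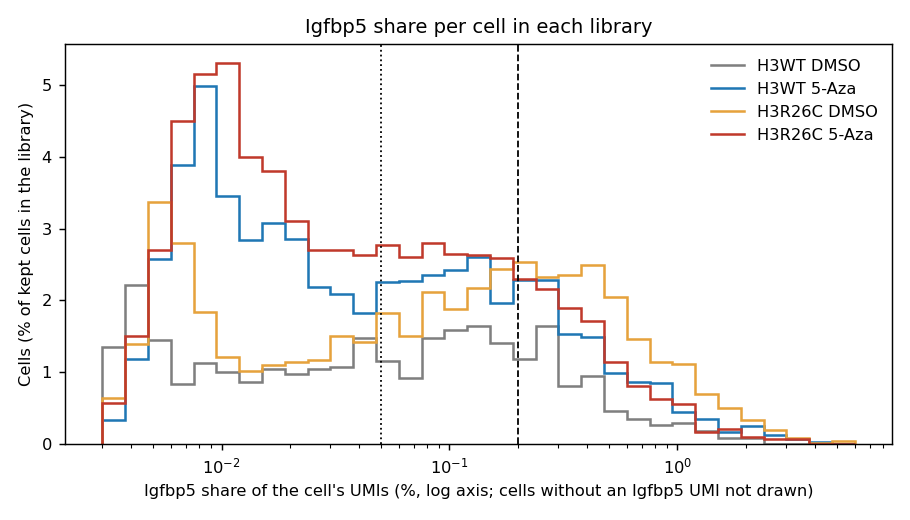
Distribution of the Igfbp5 share of UMIs (x axis, percent, log scale) over the kept cells of each library (y axis, percent of kept cells per interval); cells without an Igfbp5 UMI are not drawn. The dashed line marks 0.2%, above which cells were called Igfbp5-high, and the dotted line 0.05%, below which they were called Igfbp5-low. H3R26C with DMSO holds the most cells above the dashed line (16.9%) and H3WT with DMSO the fewest (6.04%).

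The median of UMIs per cell was 19370 in Igfbp5-high against 22768 in Igfbp5-low cells of H3WT with DMSO, 13339 against 13047 in H3WT with 5-Aza, 15961 against 16786 in H3R26C with DMSO and 13305 against 12930 in H3R26C with 5-Aza. The median mitochondrial share was higher in the Igfbp5-high cells of every library, at 4.24 against 3.82%, 3.01 against 2.85%, 3.14 against 2.66% and 2.95 against 2.48%. Malat1, a nuclear long noncoding RNA, was also higher, at 12177 against 9216, 12504 against 10036, 10123 against 7758 and 13894 against 8842 CPM (log2 fold change 0.42, SE 0.067, edgeR adjusted p = 0.013). Neat1, another nuclear RNA, rose by 0.44 on the log2 scale (adjusted p = 0.042), while Xist and 3 further nuclear-retained RNAs of that list did not pass the test. The part of RNA quality in the differences below was not tested. Between 0 and 4 Igfbp5-high barcodes were shared by any pair of libraries.

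Against Igfbp5-low cells of the same library, Igfbp5-high cells had less RNA of cell division genes and more RNA of F13a1, of Igf1 and Igf2, of the proteoglycans decorin and lumican and, after 5-Aza, of the muscle regulators Myod1 and Myog. The counts of each gene were summed over the cells of each class and library, which gave 8 sums of 4478326 to 79612822 UMIs, and were fitted with edgeR's quasi-likelihood test with the library as a block. Of 10129 genes tested, 632 were called higher (6.24%) and 641 lower (6.33%) at an adjusted p below 0.05, with Igfbp5 itself left out. The median log2 fold change over all genes tested was 0.01, and 1234 of the called genes moved the same way in all 4 libraries. The test itself favours such genes, since its error comes from the spread over these libraries. Among the called genes named below, F13a1, Igfals, Col14a1, Mest and Peg3 reached the minimum of 5 CPM only through the Igfbp5-high sums. Cfd, Adipoq, Il1rl1, Matn3, Aurka, Plk1 and Ckap2 reached it only through the Igfbp5-low sums. The calls of all these genes add no support to the lists that hold them, and the call of F13a1 is given as a description. Nothing in the labels gives replicate cultures, so the error is the spread of the within-library difference over 4 libraries of different conditions. The counts rested in part on the DMSO libraries, since 178 genes were higher and 223 lower without H3WT with DMSO, and 153 and 127 without H3R26C with DMSO.

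All 20 genes of a G2 and mitosis list were called lower, with a median log2 fold change of -1.65. Aurka and Plk1 of that list reached the minimum of 5 CPM only through the Igfbp5-low sums, so their calls add no support to it. Of 17 tested S-phase genes 16 were called lower, with a median of -0.88. Birc5, which encodes survivin, a subunit of the chromosomal passenger complex, was at 1.79 CPM in Igfbp5-high against 46.9 in Igfbp5-low cells of H3WT with DMSO, 30.3 against 76.7 in H3WT with 5-Aza, 19.3 against 107 in H3R26C with DMSO and 39.9 against 181 in H3R26C with 5-Aza. Every Igfbp5-high value lay below every Igfbp5-low value. Its log2 fold change was -2.22 (SE 0.30, adjusted p = 0.0078). Cdc20, the activator of the anaphase-promoting complex, was at 1.56 against 18.1, 13.1 against 34.9, 7.28 against 37.7 and 17.2 against 63.4 CPM in the same order (log2 fold change -2.01, SE 0.20, adjusted p = 0.0047). Among the 15 genes of the largest falls by the naming rule, Tk1 and Pclaf act in DNA synthesis, Ube2c, Cdk1 and Cks2 in cell cycle control, and Cenpm, Cenpa, Cenpf, Anln, Tpx2 and Prc1 at kinetochores, in the spindle or in cytokinesis. The log2 fold changes of these genes ran from -2.02 for Tk1 to -1.61 for Prc1. Tk1, Cdc20, Cenpm, Hmga1, Pclaf, Anln, Tpx2, Cdk1 and Prc1 met the 20 CPM of the naming rule only through the Igfbp5-low sums. The ranks of these genes are given as a description. Hmga1, a chromatin architecture protein high in growing cells, fell by 1.82 on the log2 scale (adjusted p = 0.014). Its log2 ratios were -0.75 and -0.91 in the H3WT and -2.18 and -2.52 in the H3R26C libraries. Its genotype interaction was -1.55 (edgeR adjusted p = 1.3e-04) in a fit with 1 residual degree of freedom. In a model with that interaction alone it was not called.

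In cells thinned to 5000 UMIs, the share with a UMI of at least 1 of 8 cycling genes was 6.25% in Igfbp5-high against 11.9% in Igfbp5-low cells of H3WT with DMSO, 16.7 against 18.9% in H3WT with 5-Aza, 11.5 against 19.1% in H3R26C with DMSO and 22.7 against 38.9% in H3R26C with 5-Aza. The unthinned shares were 26.8 against 31.4%, 29.8 against 32.9%, 24.0 against 34.8% and 45.1 against 55.8%. In H3WT with 5-Aza the 95% intervals overlapped (13.9 to 19.7% and 17.7 to 20.04%), and in the other libraries they did not. The part of free RNA in these shares was not tested. Of 15 tested CDK inhibitors and p53 targets, 2 were called higher and 2 lower. Cdkn1a (p21) was 0.31 higher on the log2 scale (adjusted p = 0.023) and Eda2r 0.78, while Ccng1 gave -0.33 and Ckap2 -1.75. Cdkn1b (p27) gave 0.01 without a call, and the growth regulator Myc fell by 0.52 (adjusted p = 0.0084).

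**Figure D2:**
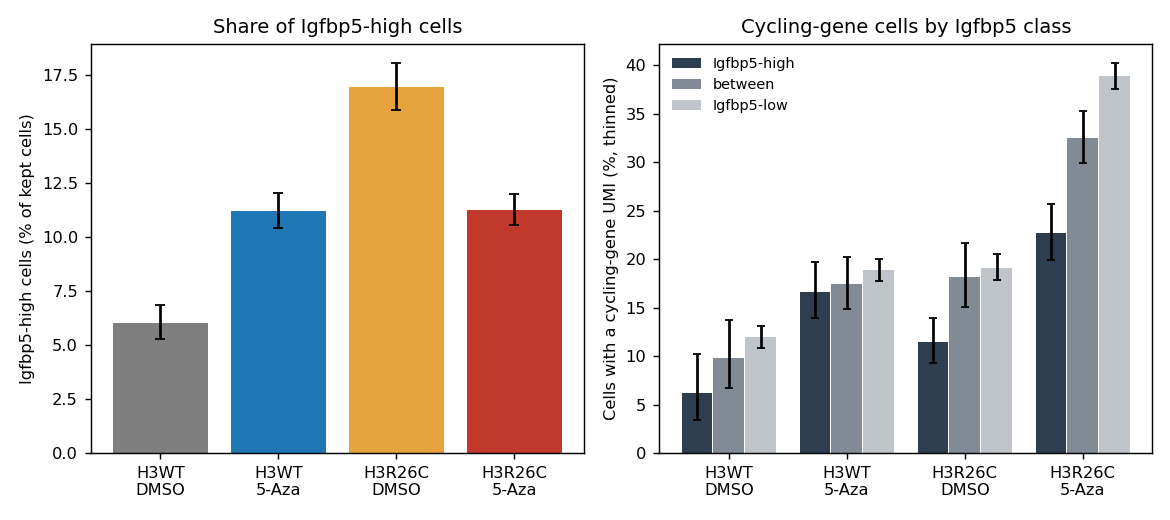
Left, share of Igfbp5-high cells among the kept cells of each library (percent). Right, share of thinned cells with a UMI of at least 1 of 8 cycling genes, by Igfbp5 class and library; all bars start at 0 and error bars are exact binomial 95% intervals, which cover counting error only. H3R26C with DMSO has the highest share of Igfbp5-high cells (16.9%), and the cycling share is lowest in the Igfbp5-high class of each library, with intervals that overlap those of Igfbp5-low cells in H3WT with 5-Aza.

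Since F13a1 showed the largest rise by the naming rule and Cdc20 stands for the mitosis genes, their promoters are shown. The F13a1 window (its first annotated start) lies at chr13:37050245-37050494 and the Cdc20 window at chr4:118437344-118437593, both on the minus strand of GRCm38.p6 and 250 bases long up to the RefSeq start. Capitals mark CANNTG in F13a1, and in Cdc20 they mark CCAAT, the letters bound by the factor NF-Y, and TTTGAA, the letters of the cell cycle element CHR, with each motif searched on both strands.
F13a1: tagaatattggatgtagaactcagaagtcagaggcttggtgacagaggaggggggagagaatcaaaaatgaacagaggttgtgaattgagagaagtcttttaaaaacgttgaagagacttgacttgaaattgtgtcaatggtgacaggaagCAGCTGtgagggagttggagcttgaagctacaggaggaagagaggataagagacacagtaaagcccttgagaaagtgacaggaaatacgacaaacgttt
Cdc20: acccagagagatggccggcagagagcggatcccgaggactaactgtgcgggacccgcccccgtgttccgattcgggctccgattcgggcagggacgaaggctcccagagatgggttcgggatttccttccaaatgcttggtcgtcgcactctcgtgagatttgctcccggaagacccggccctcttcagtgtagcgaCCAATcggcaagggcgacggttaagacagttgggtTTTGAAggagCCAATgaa
The Cdc20 window held 2 matches to CCAAT and 1 to TTTGAA. The matching window of Birc5, the largest fall by the naming rule, held 0 of each. Over the promoters of 17 matched genes of the G2 and mitosis list, 82.4% held CCAAT and 47.1% TTTGAA, against 33.8% and 16.0% of all 32851 promoters of that length. Over 14 promoters of the 10 matched genes among the 15 largest rises, 64.3% held CANNTG, against 66.2% of all promoters, and 21.4% held CCAAT. The Igfbp5 window held neither CCAAT nor TTTGAA. A match is a description of these letters and not a site shown to be used.

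The largest rise by the naming rule was that of F13a1, which encodes the A subunit of coagulation factor XIII, a transglutaminase that crosslinks fibrin and matrix proteins. It was at 48.2 CPM in Igfbp5-high against 6.01 in Igfbp5-low cells of H3WT with DMSO, 19.7 against 3.22 in H3WT with 5-Aza, 56.8 against 6.71 in H3R26C with DMSO and 22.3 against 3.73 in H3R26C with 5-Aza. Every Igfbp5-high value lay above every Igfbp5-low value, and the log2 fold change was 2.82 (SE 0.11, adjusted p = 3.9e-04). F13a1 met the minimum of 5 CPM, and the 20 CPM of the naming rule, only through the Igfbp5-high sums. Its call and its rank are therefore given as a description. Des, Inmt, Ptgfr and Adamtsl1 also met the 20 CPM only through the Igfbp5-high sums, so their ranks are descriptions too. Pi16, a secreted peptidase inhibitor known as a marker of a universal fibroblast state in adventitia, was at 202 against 40.8, 146 against 94.9, 101 against 25.98 and 90.0 against 25.8 CPM, so the H3WT cells with 5-Aza showed the smallest ratio (log2 fold change 1.65, SE 0.25, adjusted p = 0.011). The call for Pi16 was lost without H3WT with DMSO (adjusted p = 0.051) and without H3R26C with DMSO (0.055). The related gene Pi15 was at 31.9 against 12.3, 55.3 against 15.03, 196 against 98.9 and 132 against 41.2 CPM (log2 fold change 1.46, adjusted p = 0.0047).

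Of the other rises, Rnase1, a secreted ribonuclease, was 1.15 higher on the log2 scale (288 against 102 CPM in H3WT with DMSO) and Inmt, a methyltransferase, 1.21. Kctd12 encodes an auxiliary subunit of GABA-B receptors and rose by 1.26. Ramp2, a partner of the adrenomedullin receptor, rose by 1.19, and Ptgfr, the receptor of prostaglandin F2 alpha, by 1.14. Cyp2f2 is a cytochrome P450 enzyme (1.11), Adamtsl1 a secreted matrix protein (1.07) and Ppargc1a a coactivator of mitochondrial genes (1.07). Ppargc1a was high with DMSO and low with 5-Aza in H3R26C, at 77.4 against 33.5 CPM and 4.43 against 1.23 CPM. The adjusted p of these 8 genes ran from 0.0066 (Inmt) to 0.024 (Adamtsl1), and Ptgfr and Adamtsl1 lost the call without H3R26C with DMSO (adjusted p = 0.098 and 0.12). Adamtsl1 also lost it without H3WT with DMSO (adjusted p = 0.088) and without H3R26C with 5-Aza (0.051). The remaining named rises, H19, Igf2, Des and Tnnt3, are taken up with the imprinted, IGF and muscle genes.

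**Figure D3:**
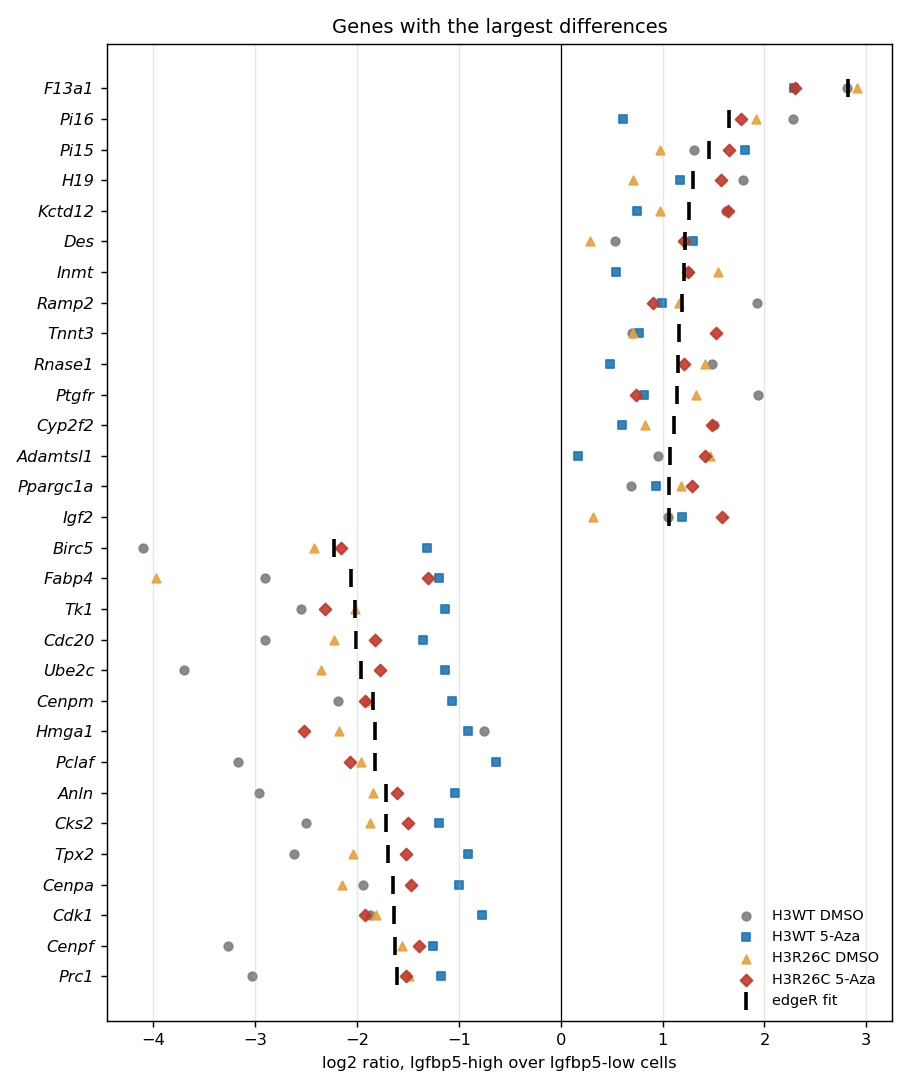
Log2 ratio of Igfbp5-high over Igfbp5-low cells (x axis) for the 15 genes with the largest rises and the 15 with the largest falls by the naming rule, 1 marker per library (1 CPM added to both values) and a black bar for the edgeR fit, to which no CPM was added. All 4 libraries lie on the same side of 0 for each gene because the naming rule required it. F13a1 leads the rises (2.82) and Birc5 the falls (-2.22).

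Among the IGF ligands, receptors and adaptors, 6 of 8 tested genes were called higher in Igfbp5-high cells and none lower, with a median log2 fold change of 0.50. Igf1, the ligand that acts on growth through IGF1R, was at 1012 CPM against 466 in H3WT with DMSO, 765 against 633 in H3WT with 5-Aza, 676 against 440 in H3R26C with DMSO and 560 against 300 in H3R26C with 5-Aza (log2 fold change 0.71, SE 0.13, adjusted p = 0.018). The ratio was smallest in H3WT with 5-Aza, and the call was lost without either DMSO library (adjusted p = 0.066 and 0.068). Igf2, the fetal ligand, was at 26.6 against 12.3, 107 against 46.4, 29.1 against 23.2 and 89.4 against 29.3 CPM (log2 fold change 1.07, SE 0.19, adjusted p = 0.017). The 5-Aza libraries held the higher Igf2 levels in both classes.

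The receptor genes moved less. Igf1r was at 63.2 against 70.6, 74.1 against 70.2, 106 against 74.3 and 102 against 61.5 CPM and did not pass the test (log2 fold change 0.29, adjusted p = 0.20), nor did the insulin receptor Insr (0.22, adjusted p = 0.12). The clearing receptor Igf2r rose by 0.38 (adjusted p = 0.024) and Lrp1, a large endocytic receptor, by 0.50 (adjusted p = 0.0059). The adaptor Irs1 rose by 0.49 (adjusted p = 0.0049) and Irs2 by 0.53 (adjusted p = 0.047). The call of Irs2 held in 11 of 22 alternatives. Irs2 was at 12.9 CPM in both classes of H3WT with 5-Aza, so that its rise lay in the other 3 libraries.

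Of the other IGF-binding proteins, 2 of 6 tested genes were called higher and none lower. Igfbp3, the main carrier of IGFs in serum, was at 27.02 against 13.7, 174 against 77.8, 32.5 against 14.8 and 147 against 86.9 CPM (log2 fold change 0.99, SE 0.081, adjusted p = 0.0039). Its call held under each of 22 alternatives, in which the log2 fold change ran from 0.85 to 1.21. Igfals, the subunit that completes the serum complex with Igfbp3, was at 3.78 to 11.7 CPM and rose by 0.93 (adjusted p = 0.010). Igfbp4, which was at 169 to 1057 CPM, differed by 0.02 (adjusted p = 0.94), and Igfbp2, Igfbp6 and Igfbp7 gave log2 fold changes of -0.36, -0.36 and -0.25 without a call.

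Among the proteases that act on IGF-binding proteins, Pappa2 was called higher. It encodes a protease that cuts Igfbp5 and Igfbp3, and its RNA was at 13.6 against 7.13, 73.7 against 43.1, 49.7 against 13.9 and 118 against 68.5 CPM (log2 fold change 1.07, SE 0.18, adjusted p = 0.016). Its relative Pappa gave 0.31 (adjusted p = 0.084). Htra1, Adam9 and Adam12, further proteases of that list, gave -0.23, 0.26 and 0.46 without a call. Of 11 tested PI3K-AKT-FOXO targets, Sesn1 (0.25) and Bcl6 (0.82) were called higher and none lower, with a median of 0.19.

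**Figure D4:**
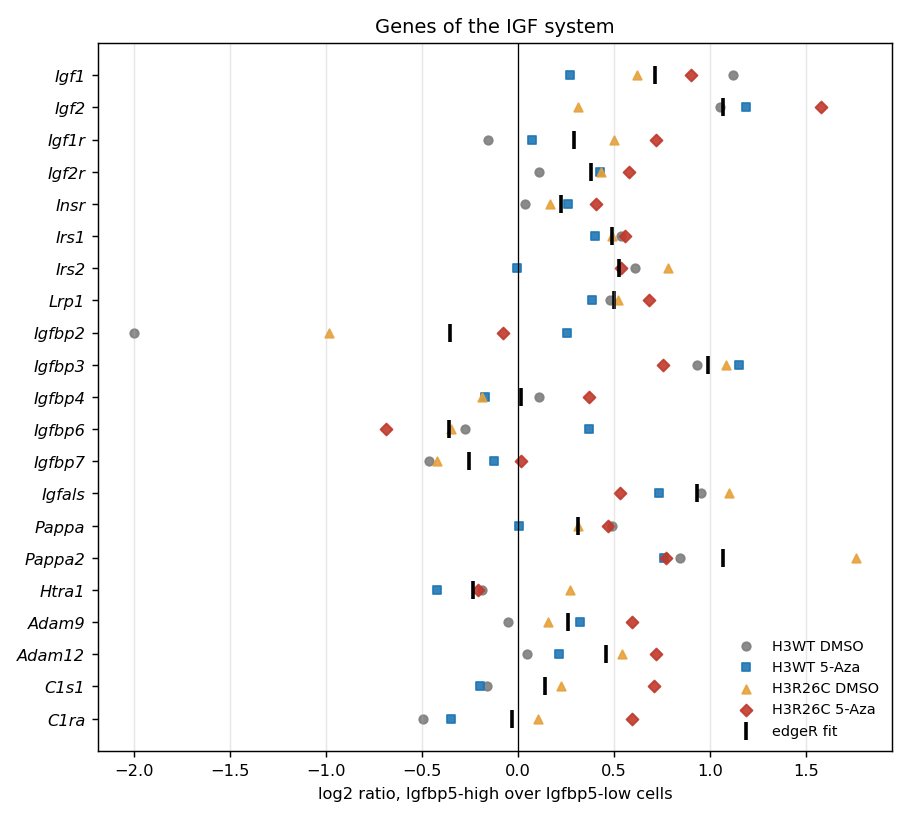
Log2 ratio of Igfbp5-high over Igfbp5-low cells (x axis) for tested genes of the IGF system, 1 marker per library (1 CPM added) and a black bar for the edgeR fit. Igf2, Pappa2, Igfbp3 and Igfals lie on the right in all 4 libraries, while Igfbp4 scatters around 0 and Igf1r lies to the right in the H3R26C libraries (0.50 and 0.72) and near 0 in the H3WT libraries (-0.16 and 0.08).

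Of 15 tested proteoglycans and small leucine-rich proteins, 5 were called higher and none lower. Dcn (decorin, a regulator of collagen fibrils) was at 2124 CPM against 734 in H3WT with DMSO, 2271 against 1477 in H3WT with 5-Aza, 2482 against 1129 in H3R26C with DMSO and 2249 against 1416 in H3R26C with 5-Aza (log2 fold change 0.97, SE 0.15, adjusted p = 0.012). The Igfbp5-high levels of Dcn were close together across conditions, and the Igfbp5-low levels were lower and more spread. Lum (lumican) rose by 0.75, Dpt (dermatopontin) by 0.65, Vcan (versican) by 0.64 and Aspn (asporin) by 0.51, while Bgn (biglycan) gave -0.15 without a call. The Dcn and Lum calls were lost without H3R26C with DMSO (adjusted p = 0.057 and 0.077), and that of Lum also without H3WT with DMSO (0.063).

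The main fibrillar collagens Col1a1 (0.09) and Col1a2 (0.00) did not differ by a called amount. Of 19 tested collagens, Col14a1, Col15a1, Col4a2 and Col6a3 were called higher (1.41, 0.50, 0.40 and 0.34) and Col8a1 and Col4a5 lower (-0.90 and -0.36). Of 21 tested elastic fibre and matrix glycoprotein genes, Fbln1 (fibulin-1) was called higher at 1.81 and Eln (elastin) lower at -1.43. These counts of 1 each way are near the shares over all genes tested (6.24 and 6.33%). Eln was at 164 against 477, 173 against 654, 73.6 against 141 and 32.4 against 74.9 CPM (adjusted p = 0.0048), so that each Igfbp5-high value was less than that of its library's Igfbp5-low cells. Mmp3, a stromelysin, rose by 1.80, Mmp2 by 0.38 and Mmp14 by 0.29, while the inhibitor Timp1 fell by 0.48.

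Of 10 tested CCN and Yap target genes, 4 were called lower and 2 higher. Ccn2 (connective tissue growth factor) was at 39.1 against 68.1, 68.9 against 139, 19.7 against 40.6 and 20.9 against 38.7 CPM (log2 fold change -0.96, SE 0.062, adjusted p = 0.0026). Ccn1, Amotl2 and Ajuba of the same list were also called lower (-0.62, -0.63 and -0.55), and Axl (0.27) and Ankrd1 (1.10) higher. Ankrd1, which muscle cells also express, turned to -0.33 without the cells richest in sarcomeric RNA. Of 9 tested smooth muscle and contractile genes, Tagln (SM22) was called lower (-1.23, adjusted p = 0.0047) and Des (desmin) higher (1.22, adjusted p = 0.0039). Acta2, smooth muscle actin, gave -1.18 without a call (adjusted p = 0.066). Of 9 tested secreted inflammatory genes, Il1rl1 (-2.60), Ccl2 (-1.29), Cxcl12 (-0.71) and Csf1 (-0.24) were called lower and Cxcl5 (1.02) higher. Fosl1, an AP-1 subunit of growing cells, fell by 1.98 (adjusted p = 0.012), while Fos and Jun gave -0.06 and -0.19 without a call.

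Muscle genes separated the 5-Aza libraries. The 16 skeletal muscle markers summed to 3.796 CPM in Igfbp5-high and 2.54 in Igfbp5-low cells of H3WT with DMSO, and to 3.68 and 2.20 CPM in those of H3R26C. With 5-Aza the sums were 2857 against 1641 CPM for H3WT and 5285 against 1190 CPM for H3R26C. In both DMSO libraries 11 of the 16 were at 0 in the Igfbp5-high cells, Myod1 and Myog among them, and the most abundant was Tnnt3 at 1.79 and 1.95 CPM. In the Igfbp5-high cells of the 5-Aza libraries the most abundant was Ttn (titin), at 1149 against 336 CPM in H3WT and 2472 against 204 in H3R26C. Of 14 tested markers 9 were called higher and none lower, with a median of 1.26, which rests on the 5-Aza libraries for the genes near 0 with DMSO. Acta1, Actc1, Tnnc2, Mylpf and Myl1 were not called. With 5-Aza, Actc1 was at 25.6 against 43.3 CPM in H3WT and 57.0 against 24.3 in H3R26C. Acta1 was at 447 against 469 and at 867 against 339 CPM.

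Myod1 and Myog encode MyoD and myogenin, the factors that set and execute the muscle program. With 5-Aza, Myog was at 119 against 36.1 CPM in H3WT and 167 against 37.3 in H3R26C (log2 fold change 1.92, SE 0.12, adjusted p = 0.0039), and Myod1 at 41.6 against 10.5 and 50.7 against 11.7 (2.04, adjusted p = 0.0047). The fusion genes Mymk and Mymx rose by 1.43 and 1.57, Des (desmin) by 1.22 and Tnnt3, a fast troponin, by 1.16. Cells with at least 0.5% of their UMIs from 12 sarcomeric genes made up 4.76% of the Igfbp5-high and 2.41% of the Igfbp5-low cells of H3WT with 5-Aza, and 7.10 and 1.68% of those of H3R26C with 5-Aza. Cells between the thresholds held more of them than Igfbp5-high cells did, at 7.46 and 11.5%. By the other measure, a UMI of at least 3 of the 12 genes in cells thinned to 5000 UMIs, the classes were nearer to each other, at 26.04% of Igfbp5-high against 23.8% of Igfbp5-low cells of H3WT with 5-Aza and 28.9 against 24.8% of those of H3R26C, with overlapping intervals in both. Leaving out the cells with at least 0.5% sarcomeric UMIs was a step chosen after seeing the data. Without those cells Ttn gave -0.05 (adjusted p = 0.72) and Myh3 -0.01, while Myog stayed at 1.89 (adjusted p = 0.0090) and Myod1 at 1.76 (adjusted p = 0.017). Since Ttn, Myh3, Myog and Tnnt3 are among the 12 genes by which these cells were removed, their lower values there follow in part from the step itself, while Myod1 is not among them. Tnnt3 lost its call there (0.51, adjusted p = 0.069). Over the alternatives in which each was tested, the call held in 19 of 20 for Myog and in 18 of 19 for Myod1. Their log2 fold changes went as low as 0.99 and 1.06.

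Cells with fewer than 2 Myog UMIs and under 0.5% sarcomeric UMIs made up 631 of the 672 Igfbp5-high cells of H3WT with 5-Aza and 771 of the 859 of H3R26C with 5-Aza. Among cells with at least 2 Myog UMIs, 18.4% of the 49 below 0.5% sarcomeric UMIs and 12.9% of the 147 above were Igfbp5-high in H3WT with 5-Aza, and 16.7% of 162 and 23.1% of 247 in H3R26C with 5-Aza. Of cells below both limits, 11.0% of 5742 and 10.8% of 7162 were Igfbp5-high. Cells with fewer Myog UMIs but at least 0.5% sarcomeric UMIs were Igfbp5-high in 23.6% of 55 cells in H3WT and 8.33% of 48 cells in H3R26C. In H3WT the 95% interval of that last class (13.2 to 37.0%) lay above that of the cells below both limits (10.2 to 11.8%), which overlapped those of both Myog classes. In H3R26C the interval of the sarcomere-rich Myog cells (18.0 to 28.8%) lay above that of the cells below both limits (10.1 to 11.5%), and those of the other Myog cells (11.3 to 23.3%) and of the fourth class (2.32 to 19.98%) overlapped both.

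Of 10 tested adipocyte markers, Cfd (-2.83), Adipoq (-2.47), Fabp4 (-2.05), Fabp5 (-1.27) and Plin4 (-0.32) were called lower and Lpl (0.73), a lipase that muscle and stromal cells also make, higher. The 14 markers summed to 211 against 269, 362 against 539, 179 against 392.3 and 269 against 318 CPM in the library order above, and the most abundant in Igfbp5-high cells were Plin4 with DMSO (97.8 and 61.4 CPM) and Lpl with 5-Aza (109 and 147 CPM). Without sarcomeric and adipocyte-gene cells Fabp4 lost its call (log2 fold change -0.89, adjusted p = 0.079). Of 4 tested chondrocyte markers, Sox9, Col2a1 and Matn3 fell (-0.41, -1.19 and -0.99), and of 6 tested osteoblast markers Phex was called higher (0.77). Spp1 (osteopontin) gave -1.45 without a call (adjusted p = 0.064). The 6 endothelial markers summed to at most 12.1 CPM, led there by Tek, and the 6 blood markers to at most 15.6 CPM, led there by Cd68. Of 11 tested progenitor markers, Pi16 and Ly6a (Sca-1) were called higher, and Ly6a was at 774 against 552, 1230 against 991, 952 against 566 and 2344 against 1407 CPM (log2 fold change 0.56, adjusted p = 0.010).

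Imprinted genes, which are expressed from 1 parental allele and act on fetal growth, were called higher in 5 of 13 tested cases and lower in none, with a median of 0.21, Mest and Peg3 among the called. H19, a noncoding RNA next to Igf2, was at 100 against 28.3, 224 against 98.8, 109 against 66.5 and 443 against 148 CPM (log2 fold change 1.30, SE 0.16, adjusted p = 0.0067). Mest and Peg3 gave log2 fold changes of 2.35 and 2.85 at low levels, with 26.9 against 5.95 CPM and 42.7 against 4.13 CPM in H3R26C with 5-Aza, and were at or below 3.08 CPM in every DMSO sum. Igf2 and Igf2r completed the called members. H19 lost its call without sarcomeric and adipocyte-gene cells (0.85, adjusted p = 0.051). Among PRC2 and DNA methylation enzymes, Ezh1 (0.38), Jarid2 (0.50) and Tet2 (0.31) were called higher of 11 tested, and Ezh2 gave -0.53 without a call (adjusted p = 0.055). None of 11 tested unfolded protein response genes, 6 heat shock genes or 7 Wnt genes was called in either direction.

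Within the Igfbp5 range, the genes did not all follow Igfbp5 in the same way. F13a1 rose over bins of the Igfbp5 share, from 4.61 CPM in cells without an Igfbp5 UMI to 26.8 CPM at 0.1 to 0.2%, 36.8 at 0.2 to 0.4% and 66.0 at 0.4% and over in H3WT with DMSO, and from 5.44 to 25.01, 28.9 and 80.2 CPM in H3R26C with DMSO. Dcn rose likewise, from 661 to 1870, 2097 and 2166 CPM in H3WT with DMSO and from 1425 to 1661, 2154 and 2373 CPM in H3R26C with 5-Aza. Birc5 was lowest in the top bin of each library, at 0, 12.1, 14.0 and 21.8 CPM. Pi16 instead was highest at 0.2 to 0.4% in every library and lower in the top bin, at 228 and 161 CPM in H3WT with DMSO and 101 and 76.3 CPM in H3R26C with 5-Aza.

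Myog and H19 were highest below the threshold in H3R26C with 5-Aza. Myog was at 14.3 CPM in cells without an Igfbp5 UMI, 305 at 0.05 to 0.1%, 305 at 0.1 to 0.2%, 219 at 0.2 to 0.4% and 101 at 0.4% and over, and H19 at 114, 669, 738, 509 and 357 CPM in the same bins. In H3WT with 5-Aza, Myog was at 187 CPM at 0.05 to 0.1% and 71.4 in the top bin, with 159 at 0.2 to 0.4%. The cells with the most Igfbp5 therefore held less Myog RNA than cells of an intermediate share, in both 5-Aza libraries. Over the 60 pairs of a named higher gene and a library, 42 rose from the bin at 0.2 to 0.4% to the top bin, and over the 60 pairs of a named lower gene, 55 fell. From the bin above 0 upward, 20 of the 60 and 16 of the 60 pairs moved in their direction at every step. These steps share cells, libraries and depth and are given as a description.

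**Figure D5:**
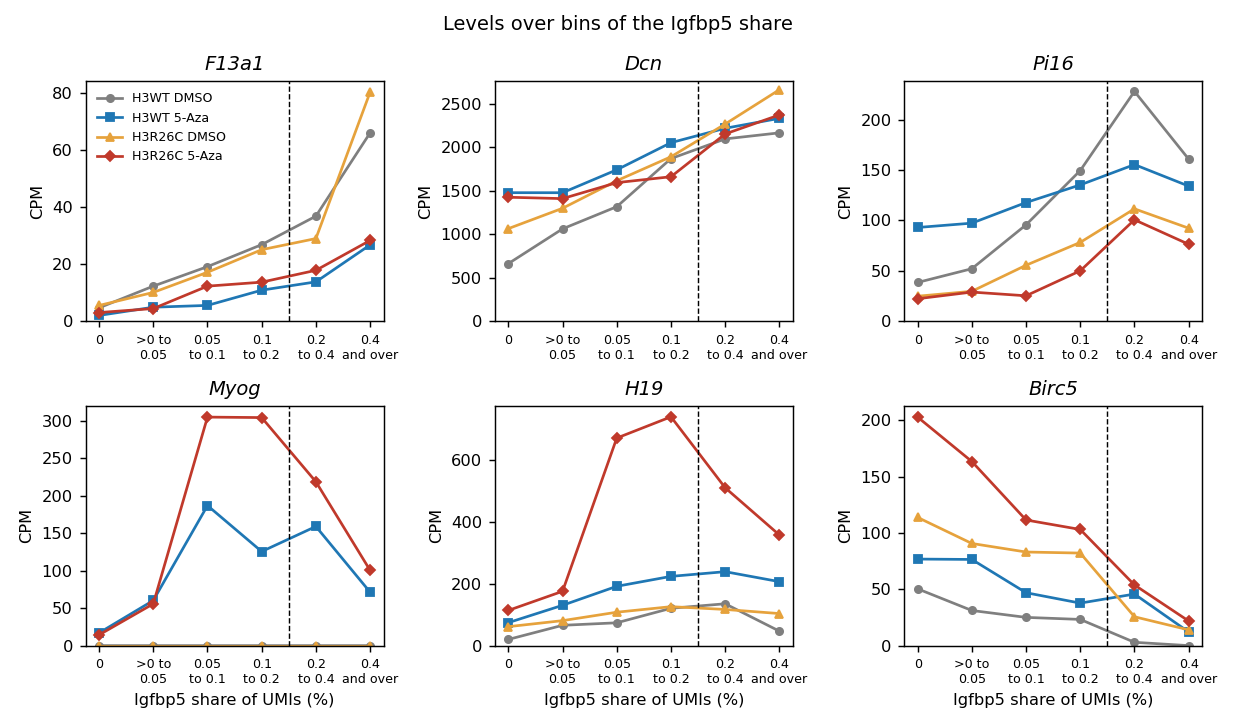
Levels (y axis, CPM from 0) of 6 genes in cells binned by the Igfbp5 share of their UMIs (x axis, percent), 1 line per library; the dashed line marks the 0.2% threshold. F13a1 and Dcn climb toward the top bin, Birc5 falls, Pi16 is highest at 0.2 to 0.4%, and Myog and H19 are highest at intermediate shares in H3R26C with 5-Aza.

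Among the Igfbp5-high cells themselves, the genes that varied most over counting noise, by mean rank over the 4 libraries in cells thinned to 5000 UMIs, were Malat1, Ptn, Mgp, AY036118, Apod, Fth1, Dcn, Scg2, H19 and Fn1, of 6381 ranked. The variance of Malat1 was 26.2 times its mean in H3WT with DMSO, 240 in H3WT with 5-Aza, 56.4 in H3R26C with DMSO and 224 in H3R26C with 5-Aza, so it was most uneven with 5-Aza. Ptn encodes the growth factor pleiotrophin and gave ratios of 21.9 to 36.3, and Mgp, matrix Gla protein, 9.72 to 61.8. Scg2 (secretogranin II) was spread over few cells, with a ratio of 10.4 to 14.1 at a mean of only 20.5 to 79.2 CPM.

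The difference between the classes was not the same in every condition. An interaction with 5-Aza was called for 139 genes (1.37% of 10129) and one with H3R26C for 288 (2.84%), from a fit with 1 residual degree of freedom. In a model with each interaction alone, which has more residual degrees of freedom, none was called for either. The largest 5-Aza interaction by the naming rule was that of Fabp4, a fatty acid carrier, whose log2 ratio was -2.90 and -3.97 with DMSO and -1.20 and -1.30 with 5-Aza (H3WT and H3R26C). Spp1 was at -1.83 and -2.89 with DMSO and -0.12 and -0.998 with 5-Aza, and Npr3, a clearance receptor of natriuretic peptides, at -2.47 and -1.04 with DMSO and -0.53 and 1.18 with 5-Aza. Of the genotype interactions, Hmga2, a chromatin protein of growing progenitors, gave log2 ratios of -0.44 (DMSO) and -0.08 (5-Aza) in H3WT, against -2.75 and -2.15 for the H3R26C libraries, and Bace2, a membrane protease, at 1.31 and 1.61 against -0.16 and 0.01.

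Within the Igfbp5-high cells the conditions were compared with 1 library each, no test was made, and genes at or above 50 CPM in either library were ranked by their log2 ratio with 1 CPM added. Between 5-Aza and DMSO, 125 of 3541 genes (3.53%) passed 2-fold in H3WT and 277 of 3615 (7.66%) in H3R26C. Between H3R26C and H3WT, 36 of 3463 (1.04%) passed with DMSO and 122 of 3512 (3.47%) after 5-Aza. Of the genes past 2-fold with 5-Aza, 70 higher and 8 lower in H3WT and 131 higher and 84 lower in H3R26C also passed in the Igfbp5-low cells. Between genotypes these were 15 higher and 6 lower with DMSO, and 53 and 44 after 5-Aza. The 5-Aza contrasts share no library with each other, but each library enters a pair of contrasts.

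The named rises with 5-Aza were sarcomeric genes, which were also detected in the Igfbp5-low cells with 5-Aza. In H3WT, Acta1 (skeletal actin) was at 447 CPM with 5-Aza and at 0 UMIs with DMSO in Igfbp5-high cells, and at 469 and 0.18 CPM in Igfbp5-low cells. Neb (nebulin) was at 209 CPM and 0 UMIs in the Igfbp5-high and at 45.6 and 0.15 CPM in the Igfbp5-low cells. In H3R26C, Myh3 (embryonic myosin) was at 305 CPM and 0 UMIs in Igfbp5-high cells and at 25.8 and 0.02 CPM in Igfbp5-low cells. Ttn, Mylpf and Myl1 were the other named rises.

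The named falls with 5-Aza were Cib3, Fosb, Irs2, Nr4a1 and Nlk in H3WT and Ppargc1a, Fos, Cib3, Col23a1 and Btg2 in H3R26C. Cib3, a calcium- and integrin-binding protein, fell in both, from 213 to 37.9 CPM in H3WT and from 156 to 17.8 CPM in H3R26C, and its Igfbp5-low cells fell from 102 to 29.3 and from 80.6 to 4.67 CPM. Irs2, the IGF adaptor, went from 53.6 CPM (95% Poisson interval 47.0 to 60.8) to 12.9 (10.7 to 15.4) in the H3WT Igfbp5-high cells, and from 34.8 to 12.9 CPM in the Igfbp5-low cells. Fos went from 487 to 42.4 CPM in H3R26C and from 424 to 45.9 in its Igfbp5-low cells. Each of these falls was also seen in the Igfbp5-low cells.

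Between the genotypes with DMSO, Pi15 was at 196 CPM in H3R26C and 31.9 in H3WT Igfbp5-high cells, beside 98.9 and 12.3 in Igfbp5-low cells. Efemp1 (fibulin-3), complement C3, Igsf10 and Bace2 were the other named rises, with log2 ratios of 1.79 to 2.39. Mmp11 (stromelysin-3) was at 74.6 CPM in H3R26C and 214 in H3WT Igfbp5-high cells, a log2 ratio of -1.50, against -0.43 in Igfbp5-low cells, and Scg2 gave -1.71 against -0.38. Dpt, Tmem229b and Fosb were the other named falls. The difference between the classes in these ratios was not tested.

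After 5-Aza, Ifi27l2a, an interferon-induced gene, was at 813 CPM in H3R26C and 59.4 in H3WT Igfbp5-high cells, beside 623 and 65.5 in Igfbp5-low cells. Crabp1, which carries retinoic acid, was at 131 CPM in H3R26C and 9.94 in H3WT Igfbp5-high cells, and at 279.7 and 13.4 CPM in Igfbp5-low cells. Cxcl13, a chemokine, was at 82.2 CPM in H3R26C and 6.49 in H3WT Igfbp5-high cells, and at 12.01 and 1.56 CPM in Igfbp5-low cells. Alox5ap was a further named rise (3.71), and Fos, Zfp36, Eln, Dlk1 and Mfap5 were the named falls, from -3.34 to -1.85. Eln was at 32.4 CPM in H3R26C and 173 in H3WT Igfbp5-high cells, and at 74.9 and 654 CPM in Igfbp5-low cells.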

How the data were processed

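The deposited values were UMI counts per gene and barcode, not normalized, which the authors had made with Cell Ranger (6.1.0, per the file headers) on the mm10 reference and limited to the barcodes it called as cells. Labels do not state whether DMSO cells were collected at the same time as 5-Aza cells. No doublets were removed. Cell filters followed the study's methods. Counts were summed per library and Igfbp5 class and tested in edgeR 4.0.16 (R 4.3.3; TMM, mean of at least 5 CPM, library and class as terms, Benjamini-Hochberg adjustment over all genes tested). Interactions added class by treatment and class by genotype. The standard error is the log2 fold change divided by the root of the quasi-likelihood F. The fit was tested on simulated data.

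The members, the 39 gene lists and the tests were chosen with earlier results of these data known. Named genes were the 15 largest rises and falls among called genes with the same sign in all 4 libraries and a mean of at least 20 CPM, leaving out Igfbp5, mitochondrial genes and unnamed gene models. For each contrast of conditions they were the 5 largest rises and falls, for each interaction the 5 largest called, for each list its largest changes and every IGF gene, and for variation the 10 highest ranks. Other genes in the text, among them Xist, Myc, Cdkn1b, Jun and Bgn, were chosen after their values were seen. Gene identifiers were matched to GENCODE M21 for 99.6% of 32285 genes, and promoters were taken from RefSeq (GRCm38.p6). A few genes that met the rule are not reported here. Intervals are exact binomial or Poisson and cover counting error only. Alternatives changed the normalization, the tool (DESeq2 1.42.0), the minimum, the libraries, the thresholds, the depth and the cells left out.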

Additional observations from a re-analysis of the deposited data

Results flagged for a closer look

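The difference between Igfbp5-high and Igfbp5-low cells depended on the condition for the genes named below, each by a called interaction term in edgeR (adjusted p below 0.05 over all genes). From DMSO to 5-Aza the signed log2 difference (Igfbp5-high minus Igfbp5-low) shifted upward by 2.82 for Fabp4, 2.23 for Npr3, 2.02 for Tmem176b, 1.81 for Spp1 and 1.81 for Apoe. It was below 0 with DMSO for each of these genes in both genotypes, and for Fabp4 and Spp1 it stayed below 0 but nearer to it with 5-Aza. From H3WT to H3R26C it shifted by 1.81 for Ttn, 1.69 for Npr3, 1.65 for Myh3, -2.25 for Hmga2 and -1.80 for Bace2. With DMSO the Igfbp5-high cells held 1 UMI of Ttn in each library and none of Myh3, so these genotype values set the H3R26C library with 5-Aza against the H3WT library with 5-Aza. The rises of both genes were absent without cells of at least 0.5% sarcomeric UMIs, a step that uses both genes. None of these was called in a model that held that interaction alone.

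Barcodes under 5000 UMIs were left out of every comparison. Of these, 11.2% in H3WT with 5-Aza and 15.6% in H3R26C with 5-Aza passed the Igfbp5 threshold, against 2.40 and 10.1% in the matching DMSO libraries.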

How the results depend on the processing

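Against 632 genes higher and 641 lower in the edgeR fit, DESeq2 gave 764 and 790. Scaling by total UMIs alone gave 779 higher and 536 lower, so the even balance of the main counts depended on the scaling. The counts of higher genes moved by more than 1.5 times with a minimum of 20 CPM (411), with every cell thinned to 5000 UMIs (411) and without cycling cells (417). The counts of lower genes did so with no minimum (1330), in cells of 10000 to 30000 UMIs (397), without cycling cells (334) and without the 5% of cells with the most UMIs (409). Leaving out 1 library gave 153 to 574 higher and 127 to 658 lower genes, lowest without H3R26C with DMSO, and 405 higher without H3R26C with 5-Aza. The 5-Aza libraries alone, an alternative chosen after seeing the data, gave 132 and 124, and the DMSO libraries alone 736 and 941. Of the 30 named genes, all kept their direction in every alternative in which they were tested. The call was lost by 7 without H3R26C with DMSO, by 7 in the 5-Aza libraries alone and by 4 without H3WT with DMSO. It was lost by 3 in cells of 10000 to 30000 UMIs and by 3 without sarcomeric and adipocyte-gene cells. Without cycling cells 16 kept the call, 3 lost it and the other named genes had no result. The log2 fold changes of Ttn (-0.047) and Myh3 (-0.013) turned without cells of at least 0.5% sarcomeric UMIs, and Ankrd1 turned there (-0.33) and without sarcomeric and adipocyte-gene cells (-0.69). Some calls of single genes were unstable. They held in 6 of 22 alternatives for Sesn1, 7 of 22 for Tet2, 9 of 19 for Matn3 and 10 of 21 for Ankrd1. For Neat1 the call held in 11 of 22 and for Adipoq in 11 of 20.

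Shares of Igfbp5-high cells at a threshold of 0.3% were 3.48, 7.21, 12.5 and 7.36% (H3WT with DMSO and 5-Aza, H3R26C with DMSO and 5-Aza), and at 0.15% they were 7.71, 13.8, 19.9 and 14.4%. Without cycling cells they were 18.2 and 13.6% in H3R26C, and at a minimum of 1000 UMIs 10.4% in H3WT with 5-Aza. Interactions with 5-Aza and with H3R26C numbered 79 and 175 with total UMIs alone, 39 and 99 with thinned cells, and 0 and 0 in a model with that interaction alone. With a minimum of 20 CPM, 251 and 521 genes passed 2-fold with 5-Aza (H3WT and H3R26C), and 82 and 234 between genotypes (DMSO and 5-Aza). The condition contrasts and shares rest on 1 library each, and no replicate error was available for them.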
